A study of Mus musculus with 10 samples.

Results

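Granule genes of cytotoxic lymphocytes were followed in mouse marrow progenitors that carry different leukaemia oncogenes. The members were all probe sets that the platform annotation assigns to Gzmb, Gzma, Gzmc, Nkg7, Prf1, Ctla2a and Ctla2b, which gave 9 probe sets for the 7 genes among 45037 probe sets on the array. One of the 9 is annotated to Ctla2a and Ctla2b together and cannot separate them. The genes were chosen with their signals on these arrays known, so their levels and differences are given as a description and were not tested. Gzmb, Nkg7, Ctla2a and Ctla2b were high in the NUP98-NSD1 clones and low elsewhere, whereas the probe sets of Gzma, Gzmc and Prf1 did not exceed 717.7 on any array.

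The cultures were primary marrow progenitors, described as myeloid, that had been immortalized in vitro and derived in medium with stem cell factor (SCF) and no GM-CSF, a condition shared by all 10. One group carried HoxA9, a homeobox transcription factor, and a second carried HoxA9 with its DNA-binding partner Meis1. NUP98-NSD1 is a fusion of a nuclear pore protein with a histone H3 lysine methyltransferase, and MLL-ENL fuses the amino-terminal part of another such enzyme, without its catalytic domain, to a protein of transcription elongation. The first 3 groups had 3 clones each and MLL-ENL had 1 array. The labels name neither the promoter that drives each oncogene nor the strain or age of the donor mice, and a clone is a culture, not an animal. Because they do not say that the clones came from separate animals, p-values measure the spread between these cultures, which may be technical.

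Granzymes are serine proteases that cytotoxic T cells and natural killer (NK) cells store in secretory granules, and perforin, the product of Prf1, lets them into a target cell. NKG7 is a membrane protein of these granules that takes part in their release. Ctla2a and Ctla2b encode small proteins that resemble the propeptide of cysteine cathepsins and can inhibit such proteases, and they were first described in activated T cells and mast cells. Mouse mast cells are also known to make granzyme B.

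The start regions of the 4 genes that were high in NUP98-NSD1 cells are shown because these genes were high together. Each run is the 250 bases before the start of the gene in RefSeq on build GRCm38.p6, read 5′ to 3′ along the gene's strand. All 7 genes matched an entry. Gzmb lies at chr14:56262335-56262584 on the minus strand, Nkg7 at chr7:43436888-43437137 on the plus strand, Ctla2a at chr13:60936626-60936875 on the minus strand and Ctla2b at chr13:60897448-60897697 on the minus strand. Ctla2a has 2 listed starts and the more upstream one was used. Capitals mark matches on either strand to 6 short motifs, namely GATAA for GATA factors, TGTGGT for RUNX, TGATTNA for HOX with PBX, TGACAG for MEIS, AGGAAG for ETS factors and ATTGC for C/EBP.
Gzmb: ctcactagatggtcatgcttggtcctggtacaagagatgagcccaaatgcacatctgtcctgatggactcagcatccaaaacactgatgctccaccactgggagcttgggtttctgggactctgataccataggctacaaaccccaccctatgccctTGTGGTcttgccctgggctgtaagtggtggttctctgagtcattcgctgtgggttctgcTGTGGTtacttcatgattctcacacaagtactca
Nkg7: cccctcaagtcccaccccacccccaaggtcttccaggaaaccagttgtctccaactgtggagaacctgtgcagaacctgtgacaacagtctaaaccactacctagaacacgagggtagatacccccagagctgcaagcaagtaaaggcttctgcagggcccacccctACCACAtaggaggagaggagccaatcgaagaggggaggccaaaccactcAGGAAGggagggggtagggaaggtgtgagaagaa
Ctla2a: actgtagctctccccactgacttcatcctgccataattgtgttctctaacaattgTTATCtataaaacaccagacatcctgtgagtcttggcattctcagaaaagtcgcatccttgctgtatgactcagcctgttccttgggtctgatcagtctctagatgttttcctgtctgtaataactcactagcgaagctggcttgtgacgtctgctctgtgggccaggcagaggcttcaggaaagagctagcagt
Ctla2b: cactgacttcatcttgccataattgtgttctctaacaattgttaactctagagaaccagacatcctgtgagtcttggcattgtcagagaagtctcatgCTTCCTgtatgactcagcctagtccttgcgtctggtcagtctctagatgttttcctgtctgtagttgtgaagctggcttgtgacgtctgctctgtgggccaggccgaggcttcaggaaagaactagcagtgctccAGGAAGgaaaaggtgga

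In the Gzmb window TGTGGT occurred at 2 places, with its first base 93 and 34 bases before the start. The Nkg7 window held ACCACA, its reverse complement, 83 bases before the start and AGGAAG at 34. The Ctla2a window held TTATC, the reverse complement of GATAA, at 195, and the Ctla2b window held CTTCCT at 152 and AGGAAG at 17. The Gzma and Prf1 windows held 1 RUNX match each and the Gzmc window 2, although these genes were not high in NUP98-NSD1 cells. Of 27025 RefSeq promoters of the same length, 14.2% held TGTGGT or its complement, 29.2% the ETS letters, 23.0% GATAA, 23.3% ATTGC, 15.9% TGACAG and 9.43% TGATTNA. In the windows of Ctla2a and Ctla2b 208 of 236 aligned positions were identical, or 88.1%. The matches are descriptions of letters and were not tested for binding.

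Signals below are the deposited intensities, scaled by the authors or their software to the same trimmed mean on each array. A level of 369 (the 40th percentile of all values) served as the filter level for dim probe sets. Above it on at least 3 arrays, and so past the filter, were 7 of the 9 probe sets and 30945 of all 45037. Gzma and Gzmc did not pass. Gzmb passed only through its 3 NUP98-NSD1 arrays, so its presence among the kept probe sets follows from that group. Outside that group Ctla2a (1448471_a_at) and Ctla2b (1452352_at) were above the level only in HoxA9+Meis1 clones 2 and 3. They too would not have passed without the NUP98-NSD1 arrays.

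Gzmb encodes granzyme B, which cleaves caspases and their substrates after aspartate. Its signal was 44526, 46188 and 2416 in NUP98-NSD1 clones 1, 2 and 3. It was 166.5, 82.5 and 97.8 in HoxA9 clones 1, 2 and 3, 190.5, 111.3 and 169.6 in the HoxA9+Meis1 clones, and 244.0 on the MLL-ENL array. All 7 arrays outside the NUP98-NSD1 group were thus below the filter level, and no NUP98-NSD1 array overlapped them, although clone 3 stood far below its own group. On the scale of log2(signal + 32) the difference was 6.90 from HoxA9 (SE 1.42, n = 3 and 3) and 6.53 from HoxA9+Meis1 (SE 1.42). Set against the filter level, because the other groups lay below it, Gzmb was at least 42.7-fold higher in NUP98-NSD1 cells. This bound was 113-fold without NUP98-NSD1 clone 3, 26.5-fold without clone 1 and 26.0-fold without clone 2.

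The other granzymes of the set behaved otherwise. Gzma encodes granzyme A, a tryptase. Its signal was 360.3, 285.2 and 351.7 in HoxA9 clones, 510.1, 336.9 and 335.8 in HoxA9+Meis1 clones, 392.0, 255.9 and 63.6 in NUP98-NSD1 clones and 289.9 with MLL-ENL. The 3 replicated groups overlapped, and only HoxA9+Meis1 clone 1 and NUP98-NSD1 clone 1 were above the filter level. The difference of NUP98-NSD1 from HoxA9 was -0.68 (SE 0.65), and -0.05 without NUP98-NSD1 clone 3. From HoxA9+Meis1 it was -0.89 (SE 0.67), and -0.26 without that clone. Gzmc, the direct neighbour of Gzmb on chromosome 14, read 27.8 to 190.7 in HoxA9, 45.7 to 196.1 in HoxA9+Meis1, 63.1 to 108.4 in NUP98-NSD1 and 41.1 in MLL-ENL cells. All 10 of its values were below the filter level and the 3 replicated groups overlapped.

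Prf1 was read by 2 probe sets that disagreed in part. Probe set 1450335_at gave 481.3, 496.8 and 409.7 in HoxA9, 489.4, 329.9 and 547.0 in HoxA9+Meis1, 323.8, 604.3 and 493.6 in NUP98-NSD1 and 456.6 in MLL-ENL cells. These groups overlapped, and NUP98-NSD1 differed by -0.00 from HoxA9 (SE 0.26) and by 0.04 from HoxA9+Meis1 (SE 0.32). Probe set 1451862_a_at gave 529.9, 716.3 and 515.4 in HoxA9, 658.4, 717.7 and 592.1 in HoxA9+Meis1, 498.2, 557.3 and 375.9 in NUP98-NSD1 and 271.8 in MLL-ENL cells. There the NUP98-NSD1 arrays lay below all HoxA9+Meis1 arrays, with a difference of -0.45 (SE 0.18), and overlapped the HoxA9 arrays (-0.28, SE 0.21). Over the 10 arrays the 2 probe sets had r = -0.05 with each other. Both were near the filter level throughout, so the perforin transcript did not show the high signal that Gzmb and Nkg7 had in NUP98-NSD1 cells.

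Nkg7 had intermediate values in one group. Its signal was 27145, 24236 and 15346.5 in NUP98-NSD1 clones and 842.7, 1216 and 618.8 in HoxA9+Meis1 clones. In HoxA9 clones it was 127.1, 111.6 and 123.8, all below the filter level, and on the MLL-ENL array 508.2. The 3 replicated groups did not overlap at all, and the order was NUP98-NSD1, HoxA9+Meis1, MLL-ENL, HoxA9. NUP98-NSD1 exceeded HoxA9 by 7.15 (SE 0.26), at least 53.9-fold, and HoxA9+Meis1 by 4.60 (SE 0.37), which is 24.3-fold. HoxA9+Meis1 exceeded HoxA9 by 2.55 (SE 0.28), at least 2.22-fold.

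Ctla2a and Ctla2b were highest in NUP98-NSD1 cells, and their HoxA9 and HoxA9+Meis1 arrays overlapped. Ctla2a (1448471_a_at) read 21080, 17081 and 4741 in NUP98-NSD1 clones, 52.9, 469.1 and 518.9 in HoxA9+Meis1 clones, 66.8, 51.5 and 16.8 in HoxA9 clones and 15.2 with MLL-ENL. HoxA9+Meis1 clone 1 lay among the HoxA9 clones while its clones 2 and 3 were above the filter level. NUP98-NSD1 was 7.34 above HoxA9 (SE 0.74), at least 29.9-fold, or at least 47.4-fold without NUP98-NSD1 clone 3. It was 5.39 above HoxA9+Meis1 (SE 1.10), with 4.51 without HoxA9+Meis1 clone 1 and 6.05 without NUP98-NSD1 clone 3. All HoxA9 clones and the mean of the HoxA9+Meis1 clones (347.0) were below the filter level, so no fold is given between HoxA9+Meis1 and HoxA9.

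Ctla2b (1452352_at) read 6587, 4917 and 2359 in NUP98-NSD1, 214.9, 444.5 and 509.6 in HoxA9+Meis1, 77.8, 137.4 and 215.1 in HoxA9 and 195.2 in MLL-ENL cells. Again only the NUP98-NSD1 arrays stood apart from all others, by 4.69 from HoxA9 (SE 0.55, at least 10.7-fold) and by 3.42 from HoxA9+Meis1 (SE 0.56, 10.7-fold). The probe set shared by Ctla2a and Ctla2b (1416811_s_at) gave 13801, 11346 and 3724 in NUP98-NSD1, 401.7, 646.2 and 817.2 in HoxA9+Meis1, 556.7, 342.2 and 632.9 in HoxA9 and 265.3 in MLL-ENL cells. NUP98-NSD1 was 3.99 above HoxA9 (SE 0.64) and 3.74 above HoxA9+Meis1 (SE 0.65). On the shared probe set HoxA9+Meis1 and HoxA9 overlapped (0.26, SE 0.38).

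**Figure D1:**
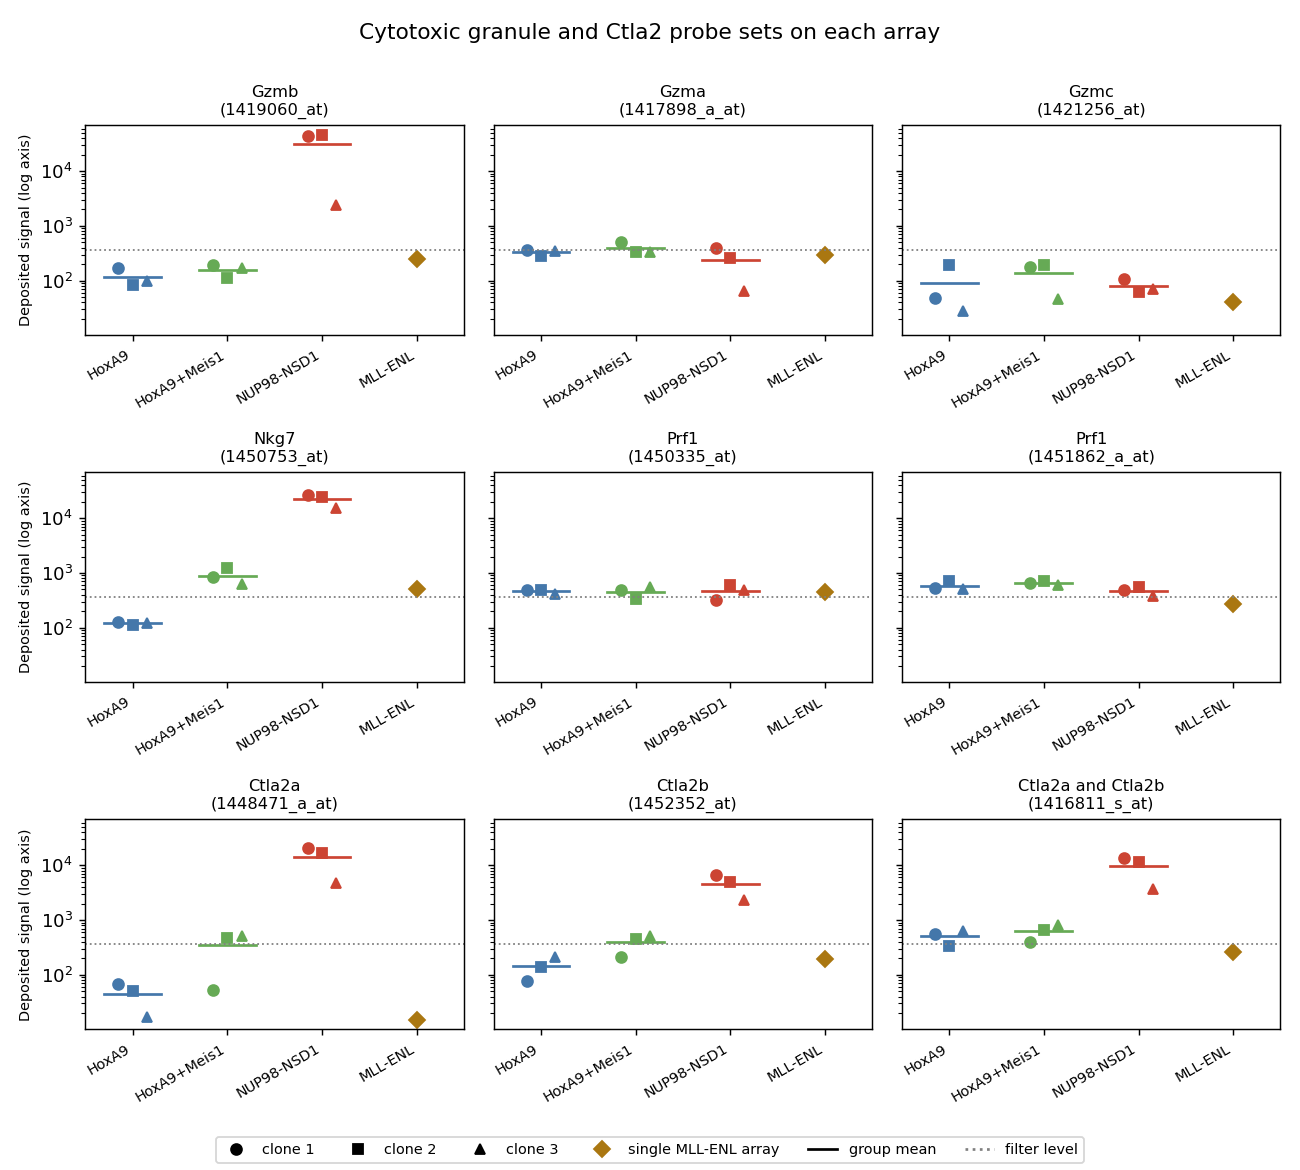
Deposited signal (log axis) of each of the 9 probe sets on the 10 arrays, by oncogene group. Circles, squares and triangles are clones 1, 2 and 3, diamonds the single MLL-ENL array, lines group means and the dotted line the filter level of 369. NUP98-NSD1 arrays lie above all others for Gzmb, Nkg7 and the 3 Ctla2 probe sets, from 2416 to 46188 for Gzmb, and not for Gzma, Gzmc or Prf1.

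Counted over the 9 probe sets, all NUP98-NSD1 arrays were above all HoxA9 arrays for 5 and below for 0, and 4 overlapped. Among all 45037 probe sets the shares were 16.2% above and 19.6% below. Against HoxA9+Meis1 the same 5 were above, Prf1 1451862_a_at was below, and 3 overlapped, beside 17.2% and 19.3% of all probe sets. HoxA9+Meis1 was above HoxA9 without overlap for Nkg7 alone (1 of 9, beside 10.8% of all), and for 0 below (12.2% of all). That count was 2 without HoxA9 clone 2, HoxA9 clone 3 or HoxA9+Meis1 clone 2, 3 without HoxA9 clone 1 and 4 without HoxA9+Meis1 clone 1. Leaving out a clone can only keep or raise such a count. The genes were chosen on these comparisons, so the shares stand beside the counts and nothing is read from them. Both NUP98-NSD1 comparisons share the NUP98-NSD1 arrays.

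MLL-ENL has 1 array, so its levels have no replicate check. It was below all 3 NUP98-NSD1 arrays for 7 of the 9 probe sets, where 33.6% of all probe sets were below, and above for 0 (20.8% of all). Against that group Gzmb was at least 42.7-fold lower, Nkg7 40.1-fold lower, Ctla2a at least 29.9-fold lower and Ctla2b at least 10.7-fold lower. Against HoxA9 the array was above all clones for 2 of the 9 (26.6% of all probe sets), Nkg7 and Gzmb, and below for 3 (44.8%). Against HoxA9+Meis1 it was above for 1 (28.4%) and below for 7 (44.3%). Gzmb in both of these comparisons, Ctla2a against HoxA9 and Gzmc against HoxA9+Meis1 were below the filter level on both sides. So was Gzmc against NUP98-NSD1, where it is among the 7 counted as below. The order of these values is not read. Thus the other fusion oncogene did not share the high levels of NUP98-NSD1 cells, in the 1 culture measured.

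Over the 10 arrays the log2 signals of Gzmb and Nkg7 had r = 0.91, Gzmb and Ctla2a 0.91, Nkg7 and Ctla2a 0.94, and Ctla2a and Ctla2b 0.97. The Prf1 probe sets had r between -0.20 and 0.01 with the others. These values describe a pattern in which 3 NUP98-NSD1 arrays are high and 7 are not, and the points share the arrays, their scaling and their set.

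Facts of the arrays touch these differences. Hybridization controls, transcripts added to each sample and read by 18 probe sets, averaged 13.17 to 13.41 on the log2 scale on HoxA9 and HoxA9+Meis1 arrays and 14.00 to 14.12 on NUP98-NSD1 and MLL-ENL arrays. The ratio of 3′ to 5′ Actb signal, a measure of RNA integrity, was 1.09 to 1.17 and 1.18 to 1.43 in these sets. Set and group cannot be told apart in NUP98-NSD1 against HoxA9 or HoxA9+Meis1. The comparison of HoxA9+Meis1 with HoxA9 lies within 1 set, and so does that of MLL-ENL with NUP98-NSD1. The median difference over all 14233 genes tested was -0.14 between NUP98-NSD1 and HoxA9 and -0.13 between NUP98-NSD1 and HoxA9+Meis1. Shifting the arrays to a common median moved these to 0.05 and 0.02, and it moved MLL-ENL against NUP98-NSD1 from -0.02 to 0.27. The highest signal per array was 138637 to 162300 on HoxA9 and HoxA9+Meis1 arrays and 225137 to 268316 on NUP98-NSD1 and MLL-ENL arrays. The top of the scale thus differed by set, which touches the differences of the brightest genes. Median signals per array were 440 to 660, the highest r between any 2 arrays was 0.96, and 0% of their values were identical.

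Markers of other cell types were read beside these genes. In bulk RNA, fewer cells of a type and less RNA per cell cannot be told apart. Of 11 T cell markers 10 had a probe set, and Cd3g, Cd247 and Cd4 were below the filter level on all 10 arrays. The summed T cell signal was 5521 to 8878 in HoxA9, 4209 to 8171 in HoxA9+Meis1, 6318 to 8843 in NUP98-NSD1 and 2729 in MLL-ENL cells, so these ranges overlapped between the 3 replicated groups. Of the 4 tested, Lat, an adaptor of T cell and mast cell receptor signalling, read 3766, 3468 and 829 in NUP98-NSD1 clones and was higher than in HoxA9 cells (3.00, SE 0.64, limma adjusted p = 0.00641). Against HoxA9+Meis1 it was also higher (2.07, SE 0.64, limma adjusted p = 0.0319), but not without HoxA9+Meis1 clone 1 (adjusted p = 0.105) or clone 3 (0.0785), or NUP98-NSD1 clone 1 (0.101) or clone 2 (0.106). Cd8a was lower than in HoxA9 cells (-0.75, SE 0.25, limma adjusted p = 0.0426), but -0.29 with the mean of its probe sets (adjusted p = 0.486). That call was also lost with a common median (0.191), after quantile normalization (0.0788) and when any 1 of the 6 clones compared was left out (0.0570 without NUP98-NSD1 clone 3 to 0.122 without HoxA9 clone 1). Summed signals of 6 of 7 NK markers were 1722 to 2222, 4057 to 5494, 2101 to 3834 and 813 in the same order of groups. The NK receptor gene Klrk1 was lower in NUP98-NSD1 than in HoxA9 cells (at least 1.77-fold, limma adjusted p = 0.00897) and HoxA9+Meis1 cells (at least 3.15-fold, limma adjusted p = 0.00126), its NUP98-NSD1 arrays all being below the filter level. Cd244a was higher than in HoxA9 cells (at least 3.62-fold, limma adjusted p = 0.000333) and not called against HoxA9+Meis1 (-0.47). Klra1 was below the filter level on all 10 arrays. The cultures are labelled myeloid, and all 10 early myeloid markers, such as Mpo and Elane, were above the filter level on every array.

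Mast cell and basophil markers moved with the granule genes. Their summed signal over 9 of 10 markers was 6511 to 11620 in HoxA9, 14338 to 24011 in HoxA9+Meis1, 58989 to 306924 in NUP98-NSD1 and 3797 in MLL-ENL cells. With limma across all genes, 6 of the 8 tested were higher in NUP98-NSD1 than in HoxA9 cells and 5 of 8 higher than in HoxA9+Meis1 cells, and 0 were lower, where 13.3% and 14.2% of all genes were called higher. Cpa3, mast cell carboxypeptidase, was 6.39 above HoxA9 (SE 0.73, limma adjusted p = 0.000242) and 6.22 above HoxA9+Meis1 (SE 0.73, limma adjusted p = 0.000283). Hdc, which makes histamine, was 7.06 above HoxA9+Meis1 (SE 0.70, at least 49.3-fold, limma adjusted p = 0.000126). Neutrophil granule markers were also higher, 6 of 6 and 5 of 6 in the same tests. Without NUP98-NSD1 clone 3 these counts were 7 of 8 and 7 of 8 for the mast cell and basophil markers and 5 of 6 and 5 of 6 for the neutrophil markers. Camp passed the filter only through the NUP98-NSD1 arrays. Outside that group Hdc was above the filter level in HoxA9 clone 3 alone (404.9). That these genes were tested thus follows from the group where they are high, and their calls are no separate evidence. No marker in these lists was at 0 on any array. The part of such cells in the Gzmb, Nkg7 and Ctla2 levels was not tested.

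The 3 NUP98-NSD1 clones differed among themselves. Clone 3 was the lowest for 6 of the 7 kept probe sets, with Prf1 1450335_at between, and it was the lowest of the 3 for 45.9% of all kept probe sets. Against the mean of clones 1 and 2 on the log2 scale, clone 3 was 18.5-fold lower for Gzmb, 3.98-fold for Ctla2a, 2.39-fold for Ctla2b and 1.67-fold for Nkg7. The genes that are high in this oncogene group were therefore not lower by the same factor in clone 3. Of kept probe sets, 8.24% were at least 2-fold below both other clones in clone 3 and 2.26% at least 2-fold above.

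Mast cell and basophil markers followed the same clones. All 8 that passed the filter were lowest in clone 3, with a median difference of -2.36. Cma1, a mast cell chymase, was 28.0-fold lower there, Fcer1a, a chain of the IgE receptor, 21.2-fold, and Cpa3 2.87-fold. Tpsb2 was read by a dim kept probe set (586.0, 210.5 and 125.2 in clones 1, 2 and 3). Its brighter probe set read 13115, 11996 and 254.0 in these clones, and Mcpt4 11475, 8976 and 111.6. Both were above the filter level in clones 1 and 2 alone, so they did not pass and the median leaves them out. All 6 neutrophil markers that passed the filter were highest in clone 3 (median 1.07). Camp read 6886, 6798 and 91350 and Ltf 2589, 2708 and 42737 in clones 1, 2 and 3. Of the 10 progenitor markers 7 were highest and 2 lowest in clone 3, with a median of 0.22, and the median of all kept probe sets was -0.10. Among all 30945 kept probe sets, 9061 were highest and 14209 lowest in clone 3. With 1 array a clone these differences have no replicate check, and how far they bear on Gzmb was not tested.

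**Figure D2:**
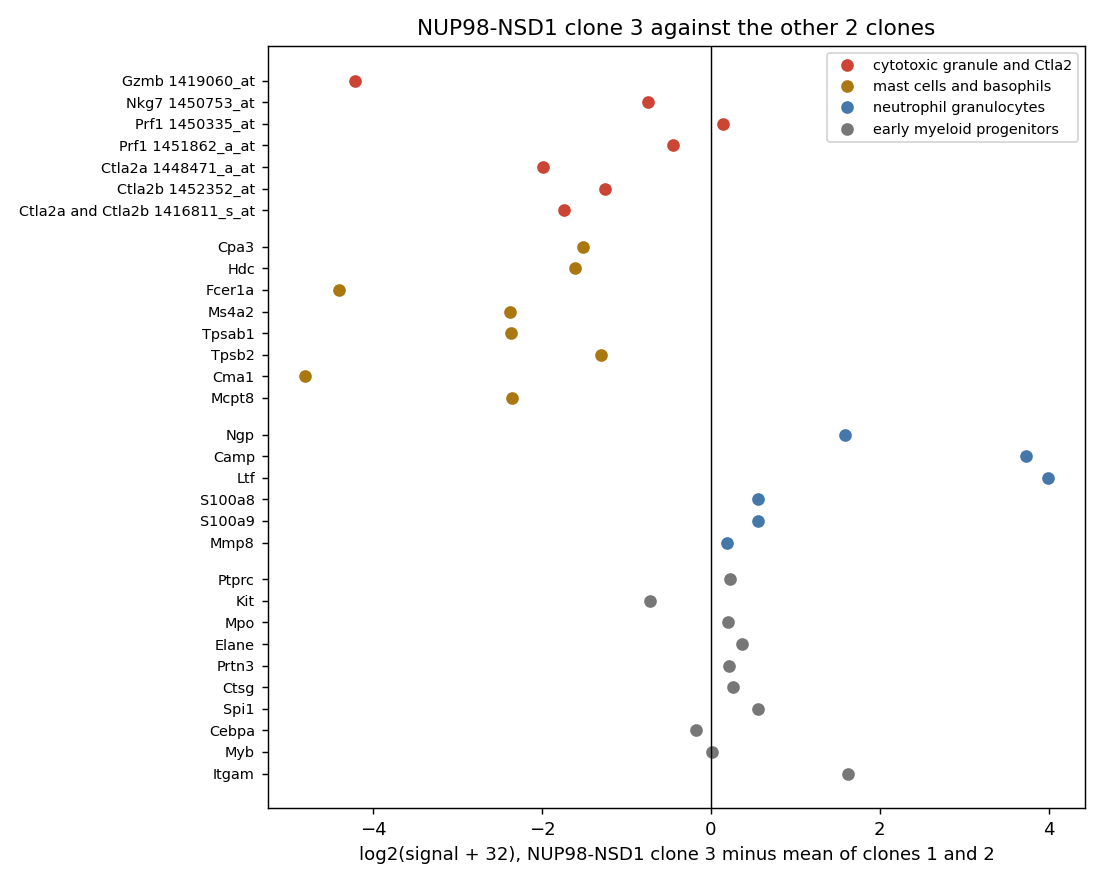
Difference of NUP98-NSD1 clone 3 from the mean of clones 1 and 2, in log2(signal + 32), for the 7 kept probe sets of the granule and Ctla2 genes and for 3 marker lists. Each point is 1 probe set, and points left of 0 are lower in clone 3. Gzmb lies at -4.21. The 8 mast cell and basophil markers that passed the filter run from -1.30 (Tpsb2) to -4.81 (Cma1) with a median of -2.36. Tpsb2 is drawn from a dim probe set, and its brighter probe set did not pass the filter. The neutrophil markers lie to the right of 0.

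Gzmb stands at the end of a cluster of serine protease genes on chromosome 14 that runs, in the RefSeq order, from Cma1 over the mast cell proteases and Ctsg to the granzymes Gzme, Gzmd, Gzmg, Gzmn, Gzmf and Gzmc. Of 15 genes in this order 13 had a probe set that was used. The 6 granzyme genes between Ctsg and Gzmb were below the filter level on all 10 arrays. At the other end Cma1 read 1999 to 61664 in NUP98-NSD1 cells, 605.5 to 700.2 in HoxA9, 212.2 to 1153 in HoxA9+Meis1 and 107.3 in MLL-ENL cells. Mcpt4 and Mcpt2, 2 further mast cell proteases, reached 11475 and 10942 in NUP98-NSD1 clones but were at 111.6 and 142.7 in the lowest of them. Mcpt8, a basophil protease, read 8442 to 44879 in NUP98-NSD1, 8816 to 21370 in HoxA9+Meis1, 2854 to 8167 in HoxA9 and 913.6 in MLL-ENL cells, so that NUP98-NSD1 and HoxA9+Meis1 overlapped. Mcpt1 was below the filter level on all 10 arrays. Ctsg, the neutrophil protease cathepsin G, was bright in every group (107604 to 227371). It read 180937 to 227371 in NUP98-NSD1 clones, at most 145083 in HoxA9 and at most 131229 in HoxA9+Meis1 clones, and 211001 in MLL-ENL cells. Gzmb and Cma1, the 2 ends of this order, and Ctsg between them were thus without overlap above both HoxA9 groups in NUP98-NSD1 cells. For Ctsg the difference from HoxA9 reversed after quantile normalization (-0.22). The 6 granzymes next to Gzmb were dim.

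**Figure D3:**
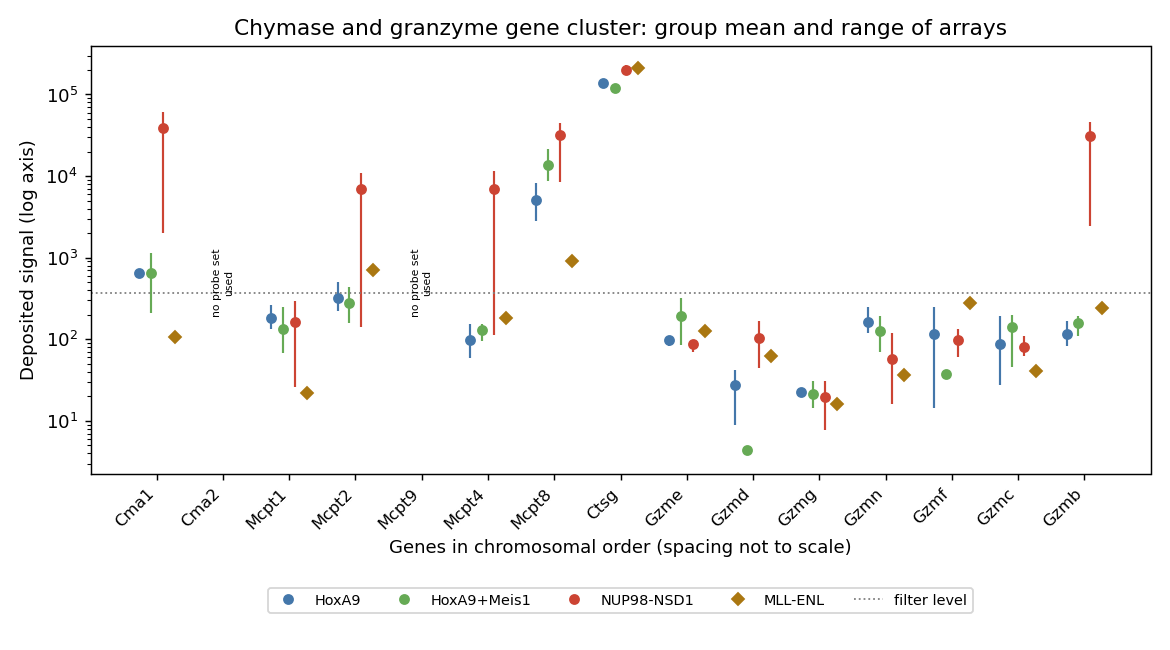
Deposited signal (log axis) of the protease genes from Cma1 to Gzmb in chromosomal order, with spacing not to scale. Points are group means, vertical lines run from the lowest to the highest clone, diamonds are the single MLL-ENL array and the dotted line is the filter level. Gzmb and Cma1 are high in NUP98-NSD1 cells, and the 6 granzymes from Gzme to Gzmc lie below the dotted line in all groups.

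The 4 nearest genes on each side of Gzmb, Nkg7 and Ctla2a in the same RefSeq order were looked up as well. Near Nkg7, Siglecf, an inhibitory receptor known from eosinophils, was 4.61 higher in NUP98-NSD1 than in HoxA9 cells (limma adjusted p = 6.56e-05) and 3.93 higher than in HoxA9+Meis1 cells (limma adjusted p = 0.000142). The genes directly next to Nkg7, Lim2 and Cldnd2, were not called in either comparison, with differences of -0.49 and -0.65 from HoxA9. Etfb, 2 places from Nkg7, was called against HoxA9+Meis1 only (0.61, limma adjusted p = 0.00573). Near Ctla2a, the gene 4930486L24Rik was 2.18 higher than in HoxA9 (limma adjusted p = 0.00757) and 1.86 higher than in HoxA9+Meis1 cells (limma adjusted p = 0.0152). The latter call was lost without HoxA9+Meis1 clone 1 (adjusted p = 0.0515), HoxA9+Meis1 clone 3 (0.0519) or NUP98-NSD1 clone 2 (0.0537). Tpbpa and Tpbpb, on either side of Ctla2a, were not called. Beyond Gzmb, Cenpj, a centriole protein, was 1.12 higher (limma adjusted p = 0.00289) and Parp4 1.15 higher (limma adjusted p = 0.00832) than in HoxA9, while Rnf17 was lower at -1.70 (limma adjusted p = 0.0198). The Rnf17 call was lost without HoxA9 clone 1 (adjusted p = 0.0617) or clone 3 (0.0695). Against HoxA9+Meis1 the differences were 0.92, 1.05 and -1.69 for Cenpj, Parp4 and Rnf17, and all 3 were called, Rnf17 not without HoxA9+Meis1 clone 1 (0.0523) or clone 2 (0.0756). The other neighbours were not called, were too dim to test or had no probe set that was used.

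Other genes of the pathway were tested in limma's fit over all 14233 genes with Benjamini-Hochberg adjustment. Of 52 listed genes 50 had a probe set and 41 were tested. In NUP98-NSD1 against HoxA9, 15 were higher, 2 lower and 24 not called, beside 31.5% of all genes called in either direction, 13.3% higher and 18.2% lower. Their median difference was 0.38 against -0.14 for all genes. After quantile normalization the split was 11 higher and 5 lower. Against HoxA9+Meis1, 15 were higher and 2 lower, beside 32.4% of all genes (14.2% higher and 18.2% lower), with a median of 0.34 against -0.13. The lists were drawn up with earlier results of these data known, and the counts describe them.

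Of 7 other granzymes only Gzmk and Gzmm were bright enough to test. Gzmm, encoding granzyme M, was lower in NUP98-NSD1 than in HoxA9+Meis1 cells (-1.30, SE 0.25, limma adjusted p = 0.00376) and was not called against HoxA9 (-0.67, SE 0.25), except without NUP98-NSD1 clone 2, where this list had 1 call. Gzmk was not called in either (-0.12 and -0.61).

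Among 10 genes that process, pack or inhibit granzymes, 5 were higher and 0 lower in NUP98-NSD1 than in HoxA9 cells, and 3 were called after quantile normalization. Ctsc, the peptidase that activates granzymes, rose by 1.19 (SE 0.09, limma adjusted p = 3.48e-05), from a mean signal of 12818 to 29182. Cst7, cystatin F, an inhibitor of that peptidase, rose by 0.90 (SE 0.12, limma adjusted p = 0.000567). Srgn, serglycin, the proteoglycan that holds granzymes in the granule, rose by 0.63 (SE 0.06, limma adjusted p = 8.89e-05), but by 0.02 after quantile normalization (adjusted p = 0.838). Serpinb6b, a serpin, was higher by 2.34 (SE 0.63, limma adjusted p = 0.0183), at least 1.91-fold. That call was lost without HoxA9 clone 2 (adjusted p = 0.0576), HoxA9 clone 3 (0.0624), NUP98-NSD1 clone 1 (0.0613) or NUP98-NSD1 clone 2 (0.0665).

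Against HoxA9+Meis1 5 of these 10 were again higher and 0 lower. Srgn rose by 1.00 (SE 0.06, limma adjusted p = 1.07e-05), Cst7 by 0.76 (SE 0.12, limma adjusted p = 0.00122), Ctsc by 0.72 (SE 0.09, limma adjusted p = 0.000405) and Calr, the granule chaperone calreticulin, by 0.51 (SE 0.07, limma adjusted p = 0.000708). Serpinb9, the intracellular inhibitor of granzyme B, had mean signals of 628 in HoxA9, 599 in HoxA9+Meis1 and 636 in NUP98-NSD1 cells, and it was not called, with differences of 0.16 and 0.08. Part of these rises was shared by the MLL-ENL array, where Gzmb was dim. There Ctsc read 25512, Srgn 130771 and Calr 109829, above every HoxA9 and HoxA9+Meis1 clone. Mean signals in NUP98-NSD1 cells were 29182, 144616 and 114143. Cst7 read 20878 on the MLL-ENL array, below every HoxA9 and HoxA9+Meis1 clone, and Serpinb6b read 483.4, between those groups.

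Of 12 genes of granule release, 3 were higher and 1 lower in NUP98-NSD1 than in HoxA9 cells, which is close to the 31.5% called among all genes. Unc13d, which primes granules for fusion, rose by 1.06 (SE 0.15, limma adjusted p = 0.000738). Rab27a, the GTPase that docks them, rose by 0.81 (SE 0.16, limma adjusted p = 0.00391), but only by 0.29 with the mean of its probe sets (adjusted p = 0.209). Lyst, a regulator of lysosome size, was higher by 1.11 (SE 0.33, limma adjusted p = 0.0284). The SNARE protein gene Stx11 was lower at -0.65 (SE 0.22, limma adjusted p = 0.0418), and not called with a common median (-0.46, adjusted p = 0.236).

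The Lyst and Stx11 calls depended on single clones. Lyst was lost without HoxA9 clone 1 (adjusted p = 0.0904), HoxA9 clone 2 (0.0624) or NUP98-NSD1 clone 3 (0.0781). Stx11 was lost without HoxA9 clone 2 (0.126), HoxA9 clone 3 (0.133), NUP98-NSD1 clone 1 (0.110) or NUP98-NSD1 clone 2 (0.128). Without HoxA9 clone 2 the count of called genes in this list fell to 2.

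Against HoxA9+Meis1 5 of the 12 were higher and 0 lower. They included Lyst (1.79, SE 0.33, limma adjusted p = 0.00297), Rab27a (1.71, SE 0.16, limma adjusted p = 8.72e-05), Unc13d (0.82, SE 0.15, limma adjusted p = 0.00267) and the SNARE gene Vamp8 (0.56, SE 0.07, limma adjusted p = 0.00046). Rab27a and Vamp8 were lower in HoxA9+Meis1 than in HoxA9 cells, by -0.90 (SE 0.16, limma adjusted p = 0.00565) and -0.48 (SE 0.07, limma adjusted p = 0.00274), the latter not called with a common median (adjusted p = 0.168).

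The cysteine cathepsins, the class of protease that Ctla2 proteins can inhibit, had 6 tested genes. Ctss, cathepsin S, was 4.54 higher in NUP98-NSD1 than in HoxA9 cells (SE 0.32, limma adjusted p = 2.89e-05). It was 4.55 higher in HoxA9+Meis1 than in HoxA9 cells (SE 0.32, limma adjusted p = 3.32e-05). Its means were 814 in HoxA9, 18350 in HoxA9+Meis1, 18002 in NUP98-NSD1 and 22329 in MLL-ENL cells, so Ctss was also high in HoxA9+Meis1 and MLL-ENL cells, where Ctla2a read at most 518.9. Ctso, cathepsin O, was lower than in HoxA9 (-0.78, SE 0.14, limma adjusted p = 0.00262) and HoxA9+Meis1 cells (-0.40, SE 0.14, limma adjusted p = 0.0494). The second of these calls was lost when any 1 of the 6 clones compared was left out, with adjusted p from 0.0574 without HoxA9+Meis1 clone 3 to 0.147 without HoxA9+Meis1 clone 1.

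Of the chymase neighbours of Gzmb, 4 of 8 listed were tested and 3 were higher than in HoxA9, beside 0 lower. Cma1 was higher by 4.80 (SE 1.10, limma adjusted p = 0.00903), and by 5.06 than in HoxA9+Meis1 cells (SE 1.10, limma adjusted p = 0.0066). Mcpt8 was higher than in HoxA9 by 2.44 (SE 0.62, limma adjusted p = 0.0142), and lost that call without HoxA9 clone 3 (adjusted p = 0.0526), NUP98-NSD1 clone 1 (0.0524) or NUP98-NSD1 clone 2 (0.0558). Ctsg was higher by 0.53 (SE 0.10, limma adjusted p = 0.00357), and after quantile normalization lower at -0.22 (adjusted p = 0.0246). Against HoxA9+Meis1 2 of the 4 were called, and 4 without NUP98-NSD1 clone 3. Cma1 and Mcpt8 are also among the mast cell and basophil markers above.

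Of 7 tested transcription factors known from cytotoxic lymphocytes, 3 were higher and 0 lower in each comparison, although with the mean of probe sets 1 was called against HoxA9. Id2, an inhibitor of helix-loop-helix factors, was 2.34 above HoxA9 (SE 0.20, limma adjusted p = 6.43e-05) and 2.26 above HoxA9+Meis1 (SE 0.20, limma adjusted p = 7.72e-05). Runx3, a RUNX factor, was 1.13 above HoxA9 (SE 0.14, limma adjusted p = 0.000465), with 0.50 and an adjusted p of 0.0503 for the mean of its probe sets. Zeb2 was 0.87 above HoxA9+Meis1 (SE 0.18, limma adjusted p = 0.00488), but -0.01 for the mean of its probe sets (adjusted p = 0.972). Bhlhe40, a basic helix-loop-helix repressor, was 1.59 above HoxA9+Meis1 (SE 0.36, limma adjusted p = 0.00763). It was 1.06 above HoxA9 (SE 0.36, limma adjusted p = 0.0458), a call lost when any 1 of the 6 clones was left out, with adjusted p from 0.0577 without HoxA9 clone 1 to 0.140 without HoxA9 clone 3. Eomes and Prdm1, master regulators in those lymphocytes, were not called in either comparison.

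**Figure D4:**
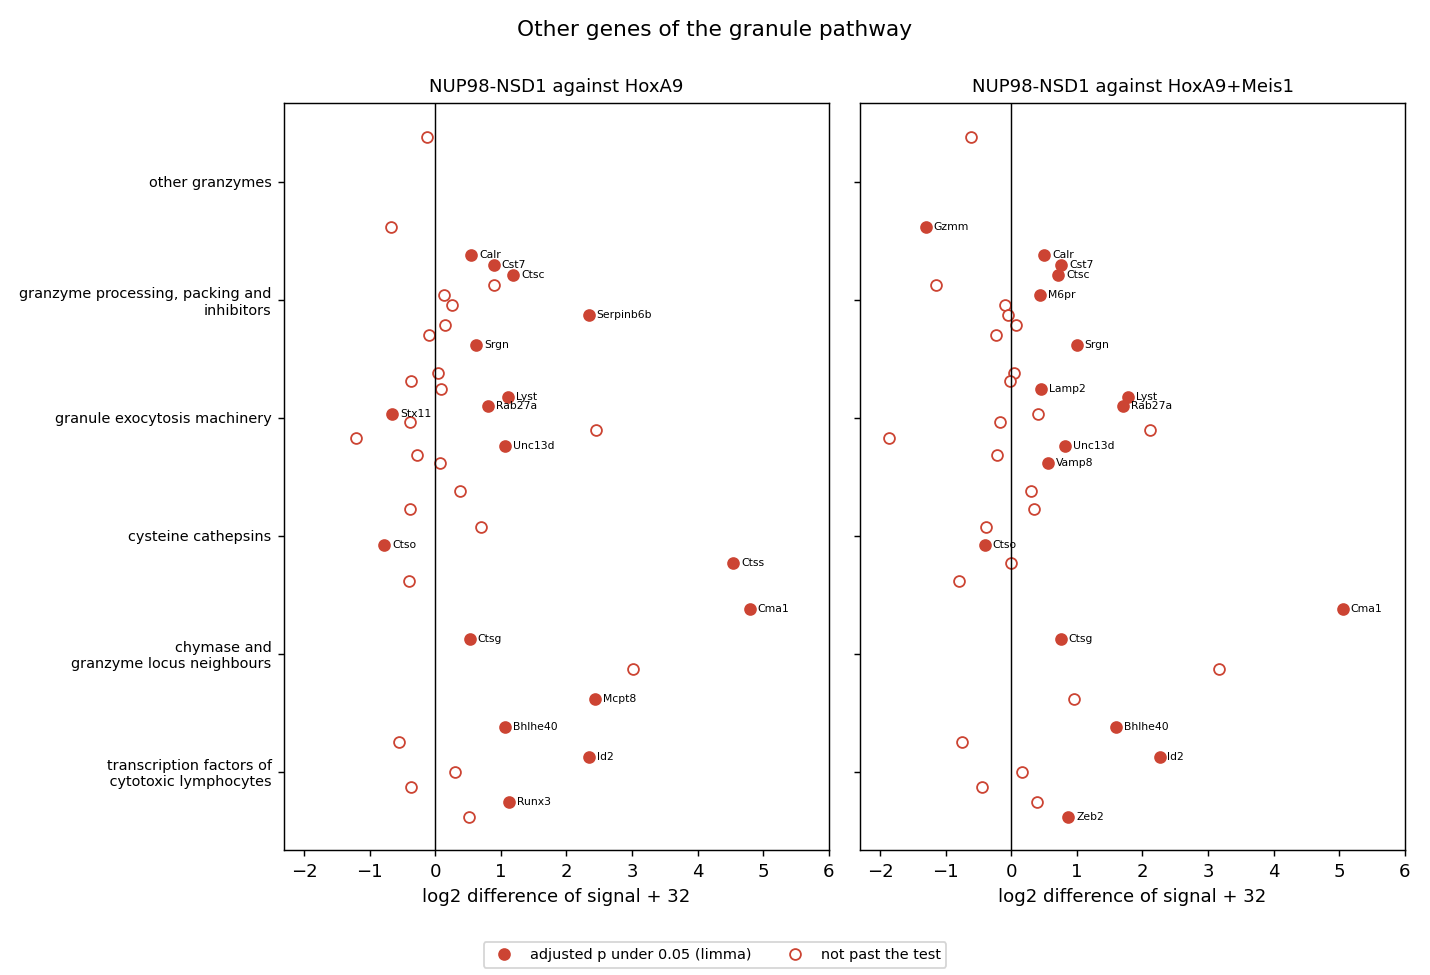
Differences of NUP98-NSD1 from HoxA9 (left) and from HoxA9+Meis1 (right) in log2(signal + 32) for the 41 tested genes of 6 lists. Each point is 1 gene, filled where limma's adjusted p was under 0.05. In each panel 15 filled points lie to the right of 0 and 2 to the left, with Cma1 and Ctss farthest to the right against HoxA9.

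Between HoxA9+Meis1 and HoxA9 cells, where Nkg7 differed without overlap, 4 of the 41 pathway genes were higher and 4 lower, beside 9.67% of all genes called, 4.61% higher and 5.06% lower. The split was 5 and 8 after quantile normalization and 3 and 1 with a common median. Besides Ctss, the higher ones were Serpinb6b (2.39, SE 0.63, limma adjusted p = 0.0399), Runx3 (0.74, SE 0.14, limma adjusted p = 0.0108) and Ctsc (0.47, SE 0.09, limma adjusted p = 0.00943), the last not called with a common median (adjusted p = 0.104) or the mean of its probe sets (0.875). Srgn was lower at -0.37 (SE 0.06, limma adjusted p = 0.00318), and not called with a common median (0.364). Serpinb6b lost its call without HoxA9 clone 2 or 3 or any 1 of the HoxA9+Meis1 clones (adjusted p from 0.0617 to 0.146), and Runx3 without HoxA9+Meis1 clone 2 (0.0513). Stx11 was lower at -1.06 (SE 0.22, limma adjusted p = 0.0128), and lost the call without HoxA9 clone 2 (0.0578), HoxA9 clone 3 (0.0536) or HoxA9+Meis1 clone 1 (0.0522). Rab27a and Vamp8, above, are the other lower ones.

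With MLL-ENL against NUP98-NSD1, limma called 2 pathway genes higher and 5 lower, beside 4.8% of all genes, 1.82% higher and 2.98% lower. This fit takes the spread of the other groups for the single array, which has no replicate check, so genes are given by signal alone. Id2 read 2979 on the MLL-ENL array and 9581 to 15723 in NUP98-NSD1 clones, Cst7 20878 and 38353 to 46672, and Mcpt8 913.6 and 8442 to 44879. The count was 4 without NUP98-NSD1 clone 1, 3 without clone 2 and 12 without clone 3, with 6 higher and 6 lower in the last case. The split was 0 higher and 4 lower after quantile normalization, and 2 and 3 with a common median.

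Genes outside the set whose log2 signal was most like that of Gzmb, by Pearson's r over the 10 arrays, were Cd200r3 (r = 0.99), Pitpnc1 (0.98), Crim1 (0.98), Epx (0.98) and Etnk1 (0.98). Cd200r3 read 423.9 to 2273 in NUP98-NSD1 cells and at most 50.9 elsewhere, and Epx, eosinophil peroxidase, 1055 to 4778 and at most 257.6. Most like Nkg7 were Ptger3 (0.99), Fchsd2 (0.98), Gimap9 (0.97), Igfbp4 (0.97) and Per1 (0.97). Ptger3, a prostaglandin E2 receptor, read 1734 to 3419 in NUP98-NSD1, 160.1 to 254.4 in HoxA9+Meis1, 140.2 in MLL-ENL and 20.4 to 45.3 in HoxA9 cells, so that only the NUP98-NSD1 arrays were above the filter level. Most like Ctla2a were Cystm1 (0.97), Ppm1e (0.97), Tmem176b (0.96), Rnf145 (0.96) and Arhgap6 (0.96). Cystm1 read 4309 to 4548 in NUP98-NSD1 cells and at most 841.9 elsewhere. These r values share the same arrays and rest on the step between NUP98-NSD1 and the rest. Cd200r3, Crim1, Epx, Ptger3 and Ppm1e passed the filter only through the NUP98-NSD1 arrays, so their likeness follows in part from that filter.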

How the data were processed

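RNA from 10 cultures was read on Affymetrix Mouse Genome 430 2.0 arrays, per the labels and the series' design text. The deposited table holds 1 linear intensity per probe set and array. The authors or their software had scaled it: with 2% of probe sets trimmed at either end, each array has a mean of 2500.01 to 2500.02. The summary software is not given in the sources used here. All value columns belong to samples.

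Groups follow the sample titles. Tests and differences use log2(signal + 32), so a fold is a ratio of signals each raised by 32. Probe sets above 369 in at least 3 of 10 arrays were kept, and in tests each gene was represented by its brightest kept probe set with 1 symbol. Marker sums and the genes of the chromosome 14 cluster used the brightest probe set whether kept or not. Symbols came from the platform annotation (34945 probe sets with 1 symbol, 932 with several, 9160 without). A bound ("at least") sets a group whose arrays are all below 369 at that level.

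For other genes the groups were tested in R 4.3.3 by limma 3.58.1 (4 group means, eBayes with intensity trend, Benjamini-Hochberg under 0.05, two-sided). The fit was tested on simulated data. Scalings, offsets, filters, probe set choice, variance model, clone block and leaving out clones were tried as alternatives. The members and lists were chosen with earlier results of these data known. Named are all members, up to 4 called genes per list and comparison with the largest difference, and the 5 genes most like Gzmb, Nkg7 and Ctla2a. Serpinb9, Gzmk, Eomes, Prdm1, neighbours, markers and cluster genes were named for role or position, after values were seen. Figures used Python 3.11.15 and matplotlib 3.10.9.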

Additional observations from a re-analysis of the deposited data

How the results depend on the processing

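Quantile normalization, a common median, offsets of 1 and 100 and each left-out clone were tried. The NUP98-NSD1 differences of Gzmb, Nkg7 and the Ctla2 probe sets from HoxA9 and HoxA9+Meis1 were above 0 in 100 of 100 values. Of all member differences, 266 of 270 stayed within 1 SD, taken from the same clones. Dropping 1 clone of a group cannot move a difference by that much, so for left-out clones this count does not show stability. Across the alternatives Gzmb differed between NUP98-NSD1 and HoxA9 by 6.19 to 8.31. With offsets of 1 and 100 Nkg7 differed from HoxA9 by 7.47 and 6.62, and with an offset of 100 Ctla2a by 6.40. The count of probe sets higher in HoxA9+Meis1 than HoxA9 without overlap, 1, was 2 under quantile normalization and 2 with a common median, and 1 to 4 without single clones. Without single clones the count for NUP98-NSD1 was 5 to 6 against HoxA9 and 5 to 5 against HoxA9+Meis1. The MLL-ENL count was 7 to 8. Leaving out a clone can only keep or raise such counts, so these ranges do not show that the counts are stable.

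Pathway calls without single clones were 13 to 20 (17 with all) for NUP98-NSD1 against HoxA9, 15 to 20 (17) against HoxA9+Meis1 and 6 to 9 (8) for HoxA9+Meis1 against HoxA9. The last count was 13 under quantile normalization, 4 with a common median and 5 without the intensity trend. Clone numbers pair no samples (0 of 9 same-number pairs correlated over 0.1). With the clone number as a replicate block the counts were 19, 16 and 11, and only Ctso against HoxA9+Meis1, among the named pathway genes, lost its call there (adjusted p = 0.0792), as did the marker Cd8a against HoxA9 (0.0571). Of 624 values of named pathway genes 559 kept direction and call, 63 lost the call and 2 reversed: Ctsg against HoxA9 under quantile normalization (-0.22) and Zeb2 against HoxA9+Meis1 with the mean of probe sets (-0.00903). The cause was not tested. Signals below 369 limit Gzma, Gzmc and the dim groups of Gzmb and Ctla2a, whose order there is not read.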
